A study of Arabidopsis thaliana with 20 samples.

Results

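The subject here is the ozone response of wild-type Arabidopsis thaliana rosettes, measured by RNA sequencing. It rests on the 8 libraries of the accession Col-0 among the 20 libraries of the study, 4 from plants given ozone and 4 from untreated plants, chosen by genotype and treatment in the sample titles. The plants were 3 weeks old, grown in peat and vermiculite under a 12 h day, and were exposed to 350 ppb ozone for 2 h or left without ozone. Each library was made from 1 pool of 5 whole rosettes. The labels call the pools biological replicates, and replicates 1 to 3 had counterparts in the mutants wrky25 wrky33 and wrky75, whereas replicate 4 was added for Col-0 alone. The question the comparison answers is which transcripts differed in the wild type at the end of the exposure.

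Ozone enters leaves through the stomata and breaks down in the cell wall space, where it gives rise to reactive oxygen species. Plasma membrane receptors, calcium fluxes, hormones and transcription factors relay the stimulus, and much of the response is shared with the response to pathogens. A whole rosette is mostly leaf mesophyll, the photosynthetic tissue, whose transcripts for photosynthesis make up a large part of the messenger RNA. Because whole rosettes were ground, fewer cells of a type and less RNA per cell cannot be told apart.

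The 8 libraries held 20539101 to 20771667 counts, and between 22290 and 22661 genes had at least 1 count in a library. Levels are given as counts-per-million values (CPM), scaled between libraries with TMM factors of 0.926209 to 1.06495. The first principal component of the 8 libraries held 86% of the variance and separated the ozone pools from the control pools, and the second, with 4.7%, set replicate 4 of both groups apart from replicates 1 to 3. All 4 mesophyll markers fell, with a summed level of 24759 to 34837 CPM in control pools and 11754 to 21703 CPM in ozone pools. None of the 5 vascular markers passed the test (adjusted p of 0.125 or more), with sums of 292 to 361 and 331 to 382 CPM. Among 5 epidermal and 5 guard cell markers, 4 and 3 fell, and HT1 of the guard cells rose. Markers of roots, flowers, seeds and pollen lay at 0 to 0.351 CPM in every pool, other than SCR at 16.3 to 43.1 CPM, AG at 0.261 to 2.72 CPM and NRT2.1 at up to 0.538 CPM. The part of tissue makeup in the results below was not tested.

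Most of the transcriptome moved. Of 19954 genes tested, 13907 (69.7%) passed an adjusted p of 0.05, with 6635 higher (33.3%) and 7272 lower (36.4%) under ozone. Tests are edgeR's quasi-likelihood F-test on all 20 libraries, with p adjusted over all genes tested, and a gene is said to have risen or fallen only where it passed. Log2 fold changes compare 4 pools with 4. The standard error after ± was derived from the F-test, whose estimate of spread comes from all 20 libraries. Of 142 genes named below by a rule on list members and extremes, 129 passed, at adjusted p of 0.0103 or less. In 128 of those the groups did not overlap. Both counts follow in part from the rule. List members and largest changes were taken only among genes that passed, and the largest fold changes only among those without overlap. With upper-quartile factors in place of TMM factors the split was 5436 higher and 9176 lower, so that 37.2% of calls were higher in place of 47.7%. That scaling moved the median over all genes tested from -0.08 to -0.28, a shift of -0.20 in log2 units, and changes are best read against those medians. Increases reached further than decreases. At least 2-fold changes numbered 3569 up (17.9% of genes) and 2827 down (14.2%), at least 8-fold changes 1041 and 119, and at least 32-fold changes 376 and 10. The groups did not overlap in 11837 genes (59.3%). In 5848 of them every ozone pool lay above every control pool, and in 5989 every ozone pool lay below.

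**Figure D1:**
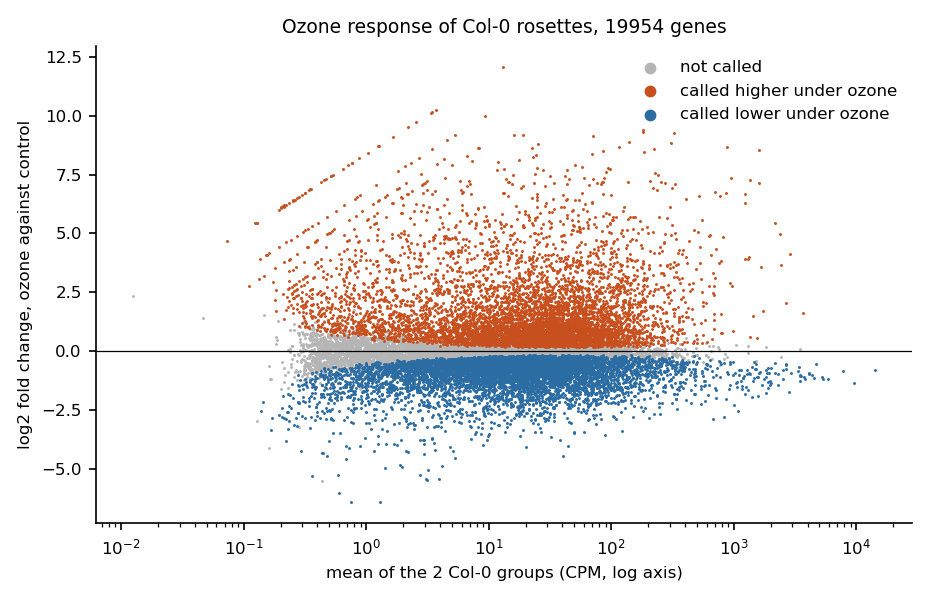
Log2 fold change of each of 19954 genes, ozone against control in Col-0 (y axis), by its mean level over both groups in CPM (log x axis), with the 6635 higher calls in orange, the 7272 lower calls in blue and other genes in grey. Increases extend much further than decreases, and most genes above 1000 CPM lie below the line of no change. The rising stripes at the upper left are genes at or near 0 counts in the control pools, whose fitted change depends on a small constant added by the fit.

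Some of the genes with the largest fold changes show how wide the range was. The bases before the starts of 5 of them are given, since letters before the start differed between genes that rose and genes that fell. PROPEP3, the precursor of a peptide that alerts neighbouring cells to damage, held 1 count over all control pools and 23.3, 15.6, 10.6 and 24.6 CPM in the ozone pools. AT1G56060, a small cysteine-rich protein with a transmembrane stretch, was at 0.301, 1.29, 0.734 and 0.0455 CPM in the control pools and 208, 384, 245 and 283 CPM in the ozone pools. At the other end, PRE1, a small bHLH protein of growth control, was at 16.4, 9.22, 8.27 and 6.69 CPM in the control pools and 0.587, 0.195, 0.32 and 0.627 CPM in the ozone pools. AT1G29430, a SAUR-like auxin-responsive gene, was at 11, 9.65, 9.88 and 8.24 CPM in the control pools and 0.538, 0.342, 0.274 and 0.94 CPM in the ozone pools, and EXPA8, an expansin of cell wall loosening, at 110.2, 66.9, 93.8 and 39.4 CPM in the control pools and 2.45, 3.03, 2.38 and 6.21 CPM in the ozone pools. The 5 genes were picked among genes whose groups did not overlap. The 250 bases upstream of each RefSeq start on TAIR10.1 are printed 5′ to 3′ on the gene's strand, with capitals at W boxes, G boxes and TGACG letters on either strand.
PROPEP3 (chr5:25939312-25939561, plus strand): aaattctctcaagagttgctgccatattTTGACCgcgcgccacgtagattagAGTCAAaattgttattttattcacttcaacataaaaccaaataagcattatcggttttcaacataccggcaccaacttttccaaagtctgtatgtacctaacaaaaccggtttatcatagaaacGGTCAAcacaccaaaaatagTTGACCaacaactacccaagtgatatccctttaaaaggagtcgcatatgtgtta
AT1G56060 (chr1:20967181-20967430, minus strand): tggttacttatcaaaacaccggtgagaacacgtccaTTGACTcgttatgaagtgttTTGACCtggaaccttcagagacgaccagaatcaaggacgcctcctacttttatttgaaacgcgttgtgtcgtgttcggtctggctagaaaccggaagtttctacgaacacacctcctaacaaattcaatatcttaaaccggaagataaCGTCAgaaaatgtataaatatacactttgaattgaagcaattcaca
PRE1 (chr5:15957118-15957367, plus strand): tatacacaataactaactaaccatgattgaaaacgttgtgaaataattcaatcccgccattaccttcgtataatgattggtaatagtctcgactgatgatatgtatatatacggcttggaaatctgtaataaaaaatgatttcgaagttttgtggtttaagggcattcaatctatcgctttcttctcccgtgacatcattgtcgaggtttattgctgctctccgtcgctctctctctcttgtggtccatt
AT1G29430 (chr1:10303419-10303668, minus strand): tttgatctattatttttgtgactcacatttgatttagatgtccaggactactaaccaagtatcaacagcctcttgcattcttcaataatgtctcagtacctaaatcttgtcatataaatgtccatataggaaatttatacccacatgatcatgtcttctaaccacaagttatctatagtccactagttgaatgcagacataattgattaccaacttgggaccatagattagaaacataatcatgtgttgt
EXPA8 (chr2:16950706-16950955, minus strand): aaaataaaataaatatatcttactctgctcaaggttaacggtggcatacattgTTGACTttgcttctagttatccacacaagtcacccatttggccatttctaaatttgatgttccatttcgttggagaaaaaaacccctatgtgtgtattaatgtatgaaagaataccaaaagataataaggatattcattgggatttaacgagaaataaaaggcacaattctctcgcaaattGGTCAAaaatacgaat
In PROPEP3 the capitals are 4 W boxes, in AT1G56060 they are 2 W boxes and 1 TGACG, and in EXPA8 2 W boxes. PRE1 and AT1G29430 have no such letters in this window. Both increases printed here have W boxes, whereas only 5 of the 10 largest increases had a W box in this window.

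The W box (TTGACC or TTGACT) is the site that WRKY factors are known to bind, and it was more common before genes that rose. In windows of 300 bases, 250 before and 50 after the start, either strand held a W box in 32.9% of the 19330 promoters of tested protein-coding genes. The share was 45.9% among genes at least 2-fold higher, 54.3% at 8-fold and 56.9% at 32-fold, and 25.2% among genes at least 2-fold lower. Among genes that did not pass the test it was 31.2%. On the gene's own strand alone the shares were 17.8% for all, 35.2% at 32-fold higher and 12.9% at 2-fold lower. The GCC box (AGCCGCC), known to be bound by ERF factors, was in 0.823% of all promoters, 2.75% of those at least 32-fold higher (10 of 364) and 0.293% of those at least 2-fold lower. TGACG, the core of TGA factor sites, was in 23.7%, 29.1% and 21.6% of the same sets. The palindromic G box (CACGTG) was in 8.83%, 7.69% and 9.41%. TGACG shares 4 letters with the W box but no copy on one strand is both. Mean GC content differed little, at 32.1% over all windows, 31.3% at 2-fold higher and 31.8% at 2-fold lower. A match of letters is a description and not a bound site: among the 10 largest increases 5 had a W box in the 250 bases before the start, against 3 of the 10 largest decreases and 28.4% of all tested genes.

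The pool of transcripts became less concentrated in a few genes. The 10 most abundant genes took 8.88% ± 0.826 of the counts in control pools and 5.42% ± 0.6 in ozone pools (mean ± SD, n = 4 each), and the 100 most abundant took 30.1% ± 1.49 and 21.5% ± 1.86. The most abundant genes that together held 50% of the counts numbered 613 ± 71.2 without ozone and 913 ± 90.9 with it. Genes of at least 1 CPM numbered 17700 ± 109 and 17927 ± 37.4. In each of these 4 measures all ozone pools lay on one side of all control pools (exact two-sided permutation test, p = 0.0286 each, the smallest that 4 against 4 allows, adjusted p = 0.0429 over 6 measures). Permuted within same-numbered pairs, which was added after seeing the data, each of the 4 measures had an exact permutation p of 0.125, the smallest that 4 pairs allow, and moved one way in 4 of 4 pairs. Without any 1 ozone pool the number of genes of at least 1 CPM still differed by 208 to 236, with an exact permutation p of 0.0571. Counts on plastid genes were 0.033% ± 0.0125 and 0.0289% ± 0.00302 of the total, a difference that did not pass (exact permutation p = 0.714), and control replicate 4 was the highest at 0.0509%. Without that pool the sign turned, with ozone 0.0019 percentage points higher.

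**Figure D2:**
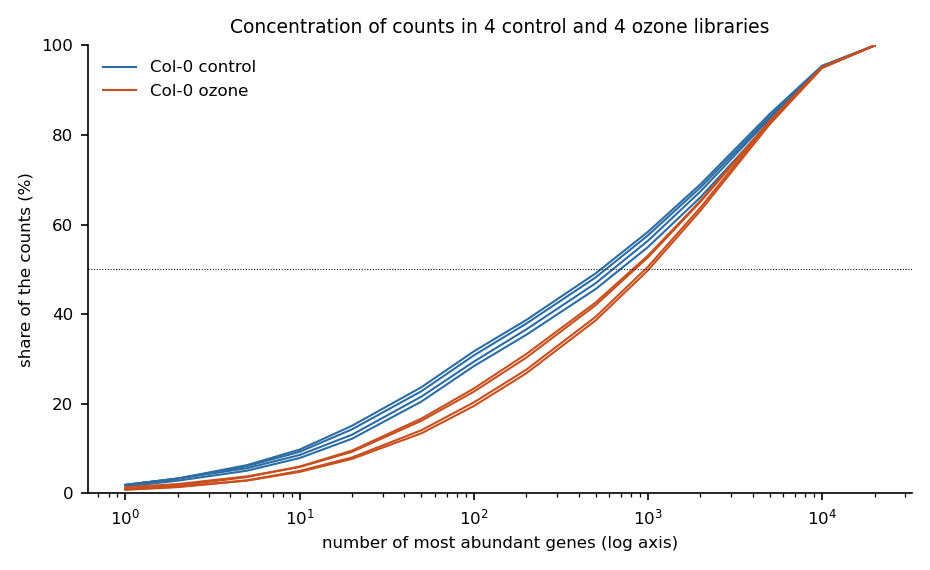
Share of all counts (y axis, %) held by the most abundant genes up to the number on the log x axis, 1 line for each of 4 control (blue) and 4 ozone (orange) libraries of Col-0. The ozone lines lie below the control lines, and the dotted line at 50% is reached at 538 to 702 genes in control pools and at 827 to 1013 in ozone pools.

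Abundance classes, formed from the mean of both groups, differed in direction as well as in the share called. Of 105 genes above 1000 CPM, 79 fell and 19 rose, with a median log2 fold change of -0.92, and their share of all CPM went from 29.05% to 20.05%. Of 1715 genes between 100 and 1000 CPM, 722 rose and 620 fell, and their share went from 34.35% to 40.64%. The 10167 genes between 10 and 100 CPM split evenly, with 3880 higher and 3889 lower, and their share went from 33.53% to 36.38%. Between 1 and 10 CPM, 1578 of 6166 genes rose and 2333 fell, and under 1 CPM 436 of 1801 rose and 351 fell. The share called was 43.7% under 1 CPM, 63.4%, 76.4% and 78.3% in the next classes and 93.3% above 1000 CPM, while the median SE of a log2 fold change was 0.381 in the lowest class and 0.123 between 10 and 100 CPM. Fewer counts give less precision, so the low share in the lowest class is not a measure of how many of its genes differed.

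The largest losses in CPM were transcripts of the photosynthetic machinery. RCA, which encodes the activase of Rubisco, was at 14503, 14144, 14022 and 12025 CPM in the control pools and 7072, 3966, 3261 and 7136 CPM in the ozone pools (log2 fold change -1.35 ± 0.25). RBCS1A, a small subunit of Rubisco, was at 19820, 18343, 19379 and 14659 CPM in the control pools and 13916, 8714, 7679 and 10972 CPM in the ozone pools (log2 fold change -0.81 ± 0.21). In both genes every ozone pool lay below every control pool, and both were lowest in ozone replicates 2 and 3. Light-harvesting proteins made up most of the rest, with LHCA4 at 7339 to 9110 CPM in control pools and 2240 to 5064 CPM in ozone pools. CAB1, another of them, fell (log2 fold change -0.83 ± 0.27) although its groups overlapped, at 7335 to 13297 CPM in control pools and 3938 to 7655 CPM in ozone pools. GUN5, the H subunit of the magnesium chelatase of chlorophyll synthesis, was at 4690, 4357, 4691 and 3519 CPM in the control pools and 1910, 993, 853 and 1425 CPM in the ozone pools (log2 fold change -1.74 ± 0.24). Reads of closely related CAB and RBCS genes may be shared between copies, since the handling of reads that map to several places is not given in the sources used here.

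The largest gains came from transporters, chaperones, detoxification and lectins. PEN3, an ABC transporter of the plasma membrane that exports defence compounds, gained most, from 329, 301, 310.3 and 308 CPM in the control pools to 5796, 4861, 3566 and 7413 CPM in the ozone pools (log2 fold change 4.12 ± 0.25). NADP-ME2, a cytosolic malic enzyme that makes NADPH, was at 182, 115, 128 and 165 CPM in the control pools and 3980, 4991, 4536 and 4934 CPM in the ozone pools (log2 fold change 4.97 ± 0.22). ABCG40, an importer of abscisic acid of the same transporter family as PEN3, was at 4.46 to 11.6 CPM in control pools and 2543 to 3955 CPM in ozone pools (log2 fold change 8.55 ± 0.33). GSTF6, a glutathione S-transferase, was at 40.6, 100.0, 55.2 and 195 CPM in the control pools and 3609, 4631, 4584 and 4269 CPM in the ozone pools (log2 fold change 5.45 ± 0.45). Its control pools ranged widely, and its ozone pools lay close together. The cytosolic HSP70 gene AT3G09440 was at 276 to 393 CPM in control pools and 3413 to 4983 CPM in ozone pools, and its relative HSC70-1 at 1437 to 1990 CPM in control pools and 4259 to 6273 CPM in ozone pools. UBQ10, a polyubiquitin gene often used as a reference in expression work, was at 1161, 990.1, 1009 and 1007 CPM in the control pools and 3811, 4538, 3711 and 4972 CPM in the ozone pools (log2 fold change 2.03 ± 0.16). The legume lectin family genes AT3G16530 and AT3G15356 stood at 14.1 to 26.6 CPM in control pools and 2820 to 3385 CPM in ozone pools and at 9.01 to 21.9 CPM in control pools and 2407 to 3059 CPM in ozone pools (log2 fold change 7.13 ± 0.30 and log2 fold change 7.28 ± 0.37).

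Gene families were compared by how many tested members rose and fell, beside the 33.3% and 36.4% of all genes. Families were taken from symbols and product names of the reference annotation and from general knowledge, 85 lists in all, and no list was tested as a set.

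**Figure D3:**
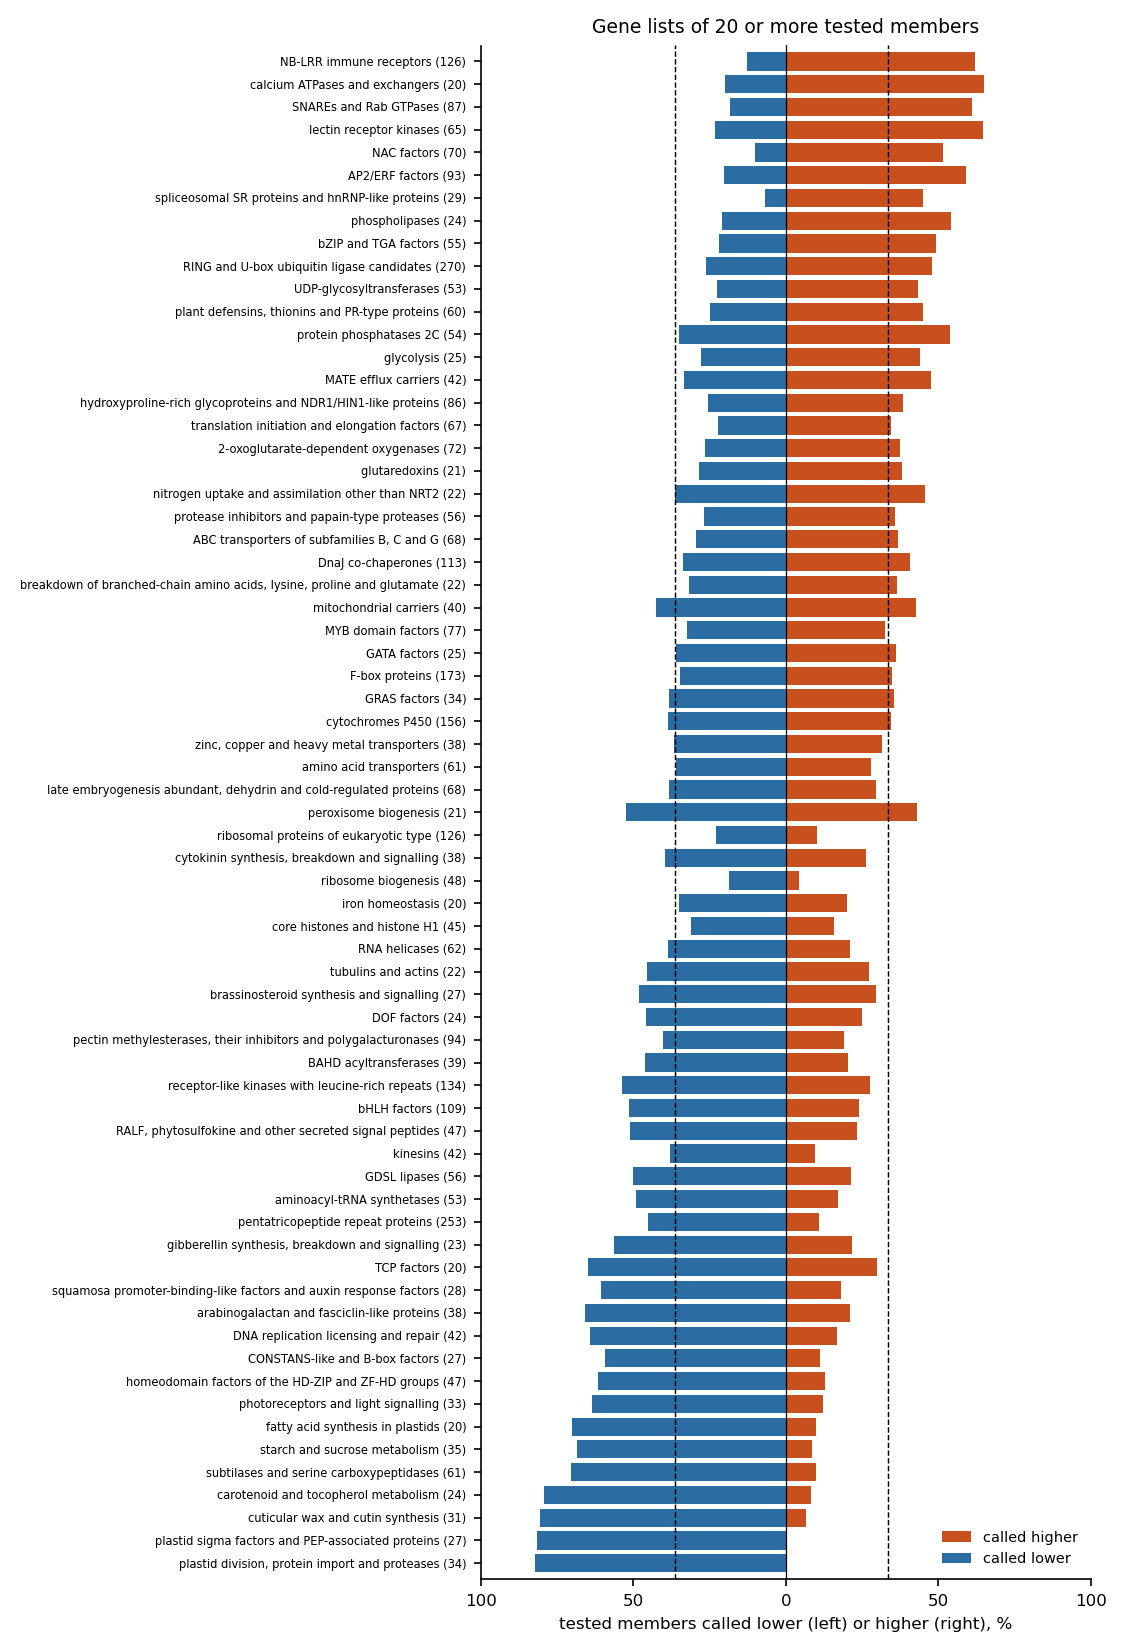
Share of tested members (x axis, %) called higher under ozone (orange, right) and called lower (blue, left) in each of 67 gene lists with at least 20 tested members, number tested in brackets, ordered by the difference of the shares. Dashed lines mark the 33.3% higher and 36.4% lower of all 19954 genes; NB-LRR receptors lead at one end and plastid division, import and protease genes close the other.

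Receptors of immunity rose more often than genes at large. NB-LRR proteins detect pathogen effectors inside the cell, and of 150 in the files 126 were tested, 78 rose and 16 fell, with a median log2 fold change of 0.73. AT4G11170, of the TIR class, was at 0.201, 0.907, 0.636 and 0.273 CPM in the control pools and 74.7, 161, 99.4 and 126 CPM in the ozone pools (log2 fold change 7.82 ± 0.43). AT1G66090, which has TIR and NBS domains, was at 2.46 to 5.33 CPM in control pools and 333 to 594 CPM in ozone pools. The TIR gene AT4G19530 went the other way, from 137, 87.3, 96.9 and 106 CPM in the control pools to 23, 13.5, 9.64 and 30.1 CPM in the ozone pools (log2 fold change -2.49 ± 0.28). Lectin receptor kinases, which carry lectin-like domains outside the cell, had the highest median of the receptor lists, 1.47, with 42 of 65 tested members higher and 15 lower (79 in the files). AT5G65600 was at 0.0502, 0.0477, 0.196 and 0.182 CPM in the control pools and 34.3, 33.2, 31.4 and 41.5 CPM in the ozone pools (log2 fold change 8.12 ± 0.30), and the S-domain kinase B120 was at 1.52 to 1.78 CPM in control pools and 129 to 199.9 CPM in ozone pools. AT1G11410, another S-domain kinase, fell from between 26.6 and 34.9 CPM in control pools to between 7.86 and 12.6 CPM in ozone pools.

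Receptor-like kinases with leucine-rich repeats, a family of both growth and defence receptors, went the other way as a list. Of 134 tested among 183 in the files, 37 rose and 72 fell, and 32 of the 37 rises were at least 2-fold. AT1G51890 was at 2.21, 11.2, 6.31 and 2.28 CPM in the control pools and 232, 323, 251 and 273 CPM in the ozone pools (log2 fold change 5.61 ± 0.49), and AT1G74360 at 4.67 to 8.02 CPM in control pools and 172 to 295 CPM in ozone pools. BAK1, the co-receptor of many receptors of growth and immunity, was at 33.3, 30.7, 27.7 and 36.2 CPM in the control pools and 217, 259.8, 212 and 255 CPM in the ozone pools (log2 fold change 2.88 ± 0.11). Among 8 tested malectin-domain kinases 3 rose and 3 fell. FER, the receptor of RALF peptides, rose slightly (log2 fold change 0.52 ± 0.10) from between 122 and 156 CPM in control pools to between 185 and 214 CPM in ozone pools, and HERK2 fell (log2 fold change -1.13 ± 0.14). Secreted signal peptides also mostly fell, 24 of 47 against 11 higher. PSK2 and PSK4, precursors of the growth peptide phytosulfokine, were exceptions, the latter at 4.11, 4.01, 5.19 and 5.1 CPM in the control pools and 35.2, 40.4, 40.3 and 33.8 CPM in the ozone pools (log2 fold change 3.02 ± 0.17) and the former at 0.953 to 2.05 CPM in control pools and 12.5 to 26.4 CPM in ozone pools. RGF9, of a peptide family named for root meristem growth, was at 107, 98.1, 84.9 and 147 CPM in the control pools and 11.3, 8.64, 7.5 and 12.9 CPM in the ozone pools (log2 fold change -3.44 ± 0.20).

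Calcium transport genes changed in both directions with large sizes. Of 20 tested calcium ATPases and exchangers 13 rose and 4 fell. AT3G63380, of the E1-E2 type ATPases, was at 4.16, 4.44, 5.38 and 1.46 CPM in the control pools and 485, 589, 497 and 591 CPM in the ozone pools (log2 fold change 7.13 ± 0.31). ACA2, a calcium pump of the endoplasmic reticulum, was at 43.8, 53.8, 50.2 and 43.7 CPM in the control pools and 555, 563, 459 and 654 CPM in the ozone pools (log2 fold change 3.54 ± 0.14). CAX1, the exchanger that loads calcium into the vacuole, fell from 241, 337, 346 and 228 CPM in the control pools to 119, 61.1, 62.3 and 122 CPM in the ozone pools (log2 fold change -1.66 ± 0.26). Cyclic nucleotide-gated channels let calcium into the cell, and 8 of 16 rose and 5 fell. CNGC10 and CNGC13 rose from between 3.91 and 8.26 CPM in control pools to between 68.7 and 89.7 CPM in ozone pools and from between 3.36 and 8.69 CPM in control pools to between 60.5 and 89 CPM in ozone pools. DND1 and CNGC4, channels whose mutants are known for constant defence, fell from between 93 and 126 CPM in control pools to between 28.8 and 69.3 CPM in ozone pools and from between 40.9 and 53.5 CPM in control pools to between 21.5 and 25.2 CPM in ozone pools (log2 fold change -1.31 ± 0.20 and log2 fold change -1.09 ± 0.11). Lipid signalling genes rose more than they fell, with 13 of 24 phospholipases higher and 5 lower. PLA2A, a patatin-like lipase, was at 5.92, 4.15, 6.02 and 4.69 CPM in the control pools and 738, 557, 326 and 875 CPM in the ozone pools (log2 fold change 6.91 ± 0.52), and the phospholipase PLDGAMMA1 at 19.9 to 31.1 CPM in control pools and 190.0 to 269 CPM in ozone pools. RING and U-box ubiquitin ligase candidates, which mark proteins for breakdown, counted 129 higher and 71 lower of 270, and among them ARI12 went from between 0.091 and 0.907 CPM in control pools to between 7.19 and 29.4 CPM in ozone pools (log2 fold change 5.51 ± 0.74). TET8, a tetraspanin found on extracellular vesicles, was at 32.1, 46.5, 43.3 and 28.5 CPM in the control pools and 601, 790.3, 579 and 704 CPM in the ozone pools (log2 fold change 4.15 ± 0.30), while 7 of the 13 tested tetraspanins fell and 4 rose.

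Some transcription factor families rose more often than they fell. AP2/ERF factors, which include the ethylene response factors, had 55 of 93 members higher and 19 lower, with a median log2 fold change of 1.11. AT2G33710 was at 0.201, 0.143, 0.147 and 0.091 CPM in the control pools and 45.8, 55.3, 37.8 and 53.5 CPM in the ozone pools (log2 fold change 8.32 ± 0.36). NAC factors had 36 of 70 higher and 7 lower, or 11 lower with upper-quartile factors. ATAF2, a NAC factor of wounding and defence, was at 13.4, 27.9, 22.4 and 15.5 CPM in the control pools and 487, 756, 631 and 691 CPM in the ozone pools (log2 fold change 5.02 ± 0.34), and AT3G12910 rose from between 0 and 0.573 CPM in control pools to between 13.1 and 21 CPM in ozone pools. Of 55 bZIP and TGA factors 27 rose and 12 fell, and BZIP60, a factor of the unfolded protein response, was at 24.5, 31.8, 26.4 and 24.3 CPM in the control pools and 186, 221, 174 and 290.0 CPM in the ozone pools (log2 fold change 3.03 ± 0.20). MYB factors did not lean either way, 25 higher and 25 lower of 77 (32.5% each, near the 33.3% and 36.4% of all genes), and 19 and 29 with upper-quartile factors. MYB15, known as an activator of lignin synthesis in defence, was at 0.753, 0.43, 0.294 and 0.273 CPM in the control pools and 77.3, 49, 32.4 and 71.1 CPM in the ozone pools (log2 fold change 7.03 ± 0.54). MYB122, a factor of indole glucosinolate synthesis, held 3 counts over the control pools and 11.4, 16.8, 14 and 11 CPM in the ozone pools. PAP1, the activator of anthocyanin synthesis, was at 5.02, 18.1, 5.63 and 47.1 CPM in the control pools and 1.47, 0.928, 0.96 and 4.75 CPM in the ozone pools (log2 fold change -3.25 ± 0.74). Its level was highest in replicate 4 of both groups, and the lowest control pool still lay above the highest ozone pool.

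Other families fell more often than they rose. Of 109 bHLH factors 56 fell and 26 rose, and KDR, a small bHLH protein of light signalling, was at 21.5, 11.5, 13.1 and 17.3 CPM in the control pools and 1.52, 1.37, 0.777 and 1.88 CPM in the ozone pools (log2 fold change -3.52 ± 0.27). AT5G56960, a bHLH gene, rose from between 0.0455 and 0.525 CPM in control pools to between 28.6 and 68.9 CPM in ozone pools (log2 fold change 7.53 ± 0.43). CONSTANS-like and B-box factors of light and flowering had 16 of 27 lower and 3 higher. COL2 was at 62.6, 95.1, 82.9 and 78.2 CPM in the control pools and 11.4, 6.83, 4.62 and 16.8 CPM in the ozone pools (log2 fold change -3.01 ± 0.29), and BBX18 fell from between 23.5 and 32.5 CPM in control pools to between 2.64 and 6.07 CPM in ozone pools. Homeodomain factors of the HD-ZIP and ZF-HD groups had 29 of 47 lower and 6 higher. HAT2, an auxin-induced member, was at 20.1, 21.4, 19.4 and 23.4 CPM in the control pools and 2.4, 6.3, 8.27 and 2.98 CPM in the ozone pools (log2 fold change -2.07 ± 0.39), highest among ozone pools in replicates 2 and 3. TCP factors, regulators of leaf growth, had 13 of 20 lower and 6 higher. Squamosa promoter-binding-like factors and auxin response factors had 17 of 28 lower and 5 higher, with SPL9, a factor of the juvenile to adult change, at 8.55 to 11 CPM in control pools and 2.33 to 3.82 CPM in ozone pools. GATA factors had 9 in each direction of 25 (36% each, near the 33.3% and 36.4% of all genes), or 6 higher and 12 lower with upper-quartile factors. GRAS factors had 12 higher and 13 lower of 34 (35.3% and 38.2%, also near the shares of all genes). With the replicate number as a block they had 14 and 13, and with replicates 1 to 3 alone 13 and 12. GNC, a GATA factor of chlorophyll synthesis and greening, was at 48.6, 47.5, 40.2 and 55 CPM in the control pools and 9.98, 8.84, 9.69 and 12.9 CPM in the ozone pools (log2 fold change -2.21 ± 0.14). SCL13, a GRAS factor of phytochrome signalling, rose from between 11.3 and 16.8 CPM in control pools to between 133 and 149.7 CPM in ozone pools.

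Genes of gibberellin, brassinosteroid and light signalling fell more often than they rose. Gibberellin promotes stem and leaf growth, and of 23 tested genes of its synthesis, breakdown and signalling 13 fell and 5 rose. GA3OX1, which makes active gibberellin, was at 10.8, 12.5, 15.2 and 10.8 CPM in the control pools and 1.96, 1.27, 1.19 and 1.83 CPM in the ozone pools (log2 fold change -2.98 ± 0.22). GA2OX6, which breaks gibberellin down, was at 0.251, 0.812, 0.391 and 0.364 CPM in the control pools and 33.2, 29, 19.4 and 50.1 CPM in the ozone pools (log2 fold change 6.15 ± 0.37). GASA6, a gibberellin-regulated gene, fell from between 47.8 and 146 CPM in control pools to between 3.34 and 15.5 CPM in ozone pools. Among 27 brassinosteroid genes 13 fell and 8 rose, with the bHLH gene BEE2 at 67.4, 54.1, 61.8 and 56.3 CPM in the control pools and 10.7, 6.3, 5.26 and 8.72 CPM in the ozone pools (log2 fold change -2.95 ± 0.17) and the receptor BRL3 at 4.55 to 9.07 CPM in control pools and 50.4 to 89.1 CPM in ozone pools. Cytokinin genes counted 15 lower and 10 higher of 38, where 39.5% lower is close to the 36.4% of all genes and 26.3% higher is under the 33.3%. ARR9, a response regulator that damps the cytokinin signal, was at 47.8, 42.3, 39.9 and 44.1 CPM in the control pools and 10.7, 8.3, 7.68 and 9.19 CPM in the ozone pools (log2 fold change -2.28 ± 0.11). CYP707A2, which breaks abscisic acid down, fell from between 5.02 and 11.1 CPM in control pools to between 0.976 and 2.45 CPM in ozone pools. Photoreceptors and light signalling genes had 21 of 33 lower and 4 higher, or 2 higher with upper-quartile factors. PHOT1, the blue light receptor of phototropism, was at 427, 255, 289 and 363 CPM in the control pools and 94.5, 62, 53.5 and 128 CPM in the ozone pools (log2 fold change -1.98 ± 0.24), and PKS2 fell from between 54.6 and 65.6 CPM in control pools to between 9.69 and 16.9 CPM in ozone pools. PHYD, a phytochrome, rose from 16.6, 15.5, 15.4 and 13.8 CPM in the control pools to 85.5, 138, 143 and 114 CPM in the ozone pools (log2 fold change 2.97 ± 0.15).

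Most lists of genes for plastid proteins had far more members lower than higher. All 18 Calvin cycle enzymes listed were lower, with a median log2 fold change of -1.05, and their summed level was 66026 CPM without ozone and 32394 CPM with it. FBA1, an aldolase of plastids, was at 2077, 2820, 2689 and 2424 CPM in the control pools and 939, 445, 376 and 942 CPM in the ozone pools (log2 fold change -1.89 ± 0.31). PRK, which makes the acceptor of carbon dioxide, was at 1893, 1931, 1879 and 2051 CPM in the control pools and 763, 399, 338 and 712 CPM in the ozone pools (log2 fold change -1.81 ± 0.25). In both genes ozone replicates 2 and 3 were lower than ozone replicates 1 and 4. Of 27 plastid sigma factors and proteins of the plastid-encoded polymerase 22 fell and 0 rose. SIGA was at 231 to 263 CPM in control pools and 40.9 to 89.8 CPM in ozone pools and SIG4 at 27.3, 29.6, 26.2 and 35.4 CPM in the control pools and 8.22, 3.17, 2.65 and 6.84 CPM in the ozone pools (log2 fold change -2.51 ± 0.27). Genes for plastid division, protein import and proteases counted 28 lower and 0 higher of 34, among them ARC5, a dynamin-like protein of plastid division, at 189 to 207 CPM in control pools and 32 to 68 CPM in ozone pools. Carotenoid and tocopherol genes counted 19 lower of 24 and 2 higher, or 0 higher with upper-quartile factors. LUT2, the cyclase on the way to lutein, was at 148, 144, 143 and 132 CPM in the control pools and 53, 30.4, 26.8 and 42.7 CPM in the ozone pools (log2 fold change -1.89 ± 0.19), and NCED4, of the carotenoid-cleaving dioxygenases, fell from at least 351 CPM in each control pool to at most 141 CPM in each ozone pool (log2 fold change -2.65 ± 0.39). Plastid fatty acid synthesis had 14 of 20 lower and 2 higher (0 higher with upper-quartile factors), with the desaturase FAD5 at 221 to 349 CPM in control pools and 47.7 to 102 CPM in ozone pools. Starch and sucrose genes had 24 of 35 lower and 3 higher, and GBSS1, which makes amylose, was at 124, 307, 216 and 305 CPM in the control pools and 57, 33, 34.3 and 83.5 CPM in the ozone pools (log2 fold change -2.20 ± 0.39). Pentatricopeptide repeat proteins, most of which process RNA in organelles, had 114 of 253 lower (45.1%, against 36.4% of all genes) and 27 higher, with DYW1, known for RNA editing in plastids, at 19.4 to 25.7 CPM in control pools and 2.7 to 6.99 CPM in ozone pools. Nuclear-encoded ribosomal proteins of plastids and mitochondria had 10 of 19 lower and 3 higher. The mesophyll markers fell in the same pools, and their part in these counts was not tested.

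Genes of the tricarboxylic acid cycle and of peroxisomal beta-oxidation rose more often than they fell. Of 19 tested genes of the tricarboxylic acid cycle and pyruvate dehydrogenase 13 rose and 4 fell, with a median log2 fold change of 0.65. mtLPD2, a mitochondrial lipoamide dehydrogenase, rose from 77.1, 93.4, 84.2 and 73.5 CPM in the control pools to 236, 299, 298 and 234 CPM in the ozone pools. FUM2, the cytosolic fumarase, was at 432, 322, 257 and 598 CPM in the control pools and 98.3, 33.1, 29.1 and 185 CPM in the ozone pools (log2 fold change -2.22 ± 0.48). Peroxisomal beta-oxidation, which shortens fatty acids, had 9 of 17 higher and 3 lower, or 6 lower with upper-quartile factors. ACX1, an acyl-CoA oxidase, was at 89, 126, 98.2 and 109 CPM in the control pools and 1002, 1826, 1686 and 1124 CPM in the ozone pools (log2 fold change 3.74 ± 0.22). Glycolysis counted 11 higher and 7 lower of 25, or 10 and 9 with upper-quartile factors. The summed level of its genes was 5571 CPM without ozone and 5238 CPM with it. GAD4, a glutamate decarboxylase that makes gamma-aminobutyrate, was at 3.46, 5.11, 2.69 and 2.5 CPM in the control pools and 396, 598, 319 and 703 CPM in the ozone pools (log2 fold change 7.19 ± 0.44), and BCAT-2, a transaminase of branched-chain amino acids, rose from between 0.587 and 2.05 CPM in control pools to between 5.28 and 12.4 CPM in ozone pools. ADC2, an arginine decarboxylase of polyamine synthesis, was at 128 to 188 CPM in control pools and 732 to 1060 CPM in ozone pools (log2 fold change 2.52 ± 0.16). PHS2, the cytosolic glucan phosphorylase, fell from between 95.3 and 211 CPM in control pools to between 19.8 and 54.6 CPM in ozone pools.

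Enzymes that modify small molecules differed by family, and genes of the leaf surface fell. UDP-glycosyltransferases attach sugars to small molecules, and 23 of 53 rose, all of them at least 2-fold, while 12 fell. UGT73B4 and UGT73B5 were at 0.0455 to 0.753 CPM in control pools and 92.6 to 187 CPM in ozone pools and at 1.22 to 2.69 CPM in control pools and 138 to 241 CPM in ozone pools. The span of UGT73B4 lies wholly within that of UGT73B5 on the same strand in the files' coordinates. How reads of the shared stretch were assigned is not given, so the levels of these genes may not be independent. BAHD acyltransferases had 8 higher and 18 lower of 39, and terpene synthases and cyclases 3 and 5 of 12. Laccases had 2 and 4 of 11 (18.2% and 36.4%), and dirigent proteins 4 and 5 of 14 (28.6% and 35.7%). Other than the 18.2%, these shares lie near the 33.3% and 36.4% of all genes. With replicates 1 to 3 alone laccases were 2 higher and 1 lower and dirigent proteins 5 and 4. By DESeq2 both lists were tied, at 2 and 2 and at 4 and 4. Cytochromes P450 split, with 54 higher and 60 lower of 156 (34.6% and 38.5%, near the 33.3% and 36.4% of all genes). CYP710A1, a sterol desaturase, was at 0.401, 1.1, 0.343 and 0.41 CPM in the control pools and 147, 298, 249.7 and 231 CPM in the ozone pools (log2 fold change 8.67 ± 0.32). Cuticular wax and cutin synthesis, which builds the leaf surface, had 25 of 31 lower and 2 higher, or 1 higher with upper-quartile factors, with a median log2 fold change of -1.06. MYB16, an activator of cuticle genes, was at 23, 17.8, 19.3 and 25.2 CPM in the control pools and 2.59, 2.54, 2.1 and 2.51 CPM in the ozone pools (log2 fold change -3.13 ± 0.17). WSD1, a wax ester synthase, fell from between 5.32 and 13.5 CPM in control pools to between 1.37 and 1.57 CPM in ozone pools. The epidermal markers ATML1, PDF1, GL1 and FDH also fell, with log2 fold changes of -1.03, -0.67, -0.56 and -1.32, and their part was not tested.

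Transporters held some of the strongest single increases while their families split. MATE efflux carriers, which move organic molecules out of the cytosol, had 20 of 42 higher (47.6%, against 33.3% of all genes) and 14 lower (33.3%, against 36.4%). AT3G23550 was at 2.66, 0.812, 0.93 and 0.956 CPM in the control pools and 495, 586, 487 and 875 CPM in the ozone pools (log2 fold change 8.84 ± 0.39), and DTX1 at 0.091 to 0.251 CPM in control pools and 24.2 to 33.6 CPM in ozone pools. ABC transporters of subfamilies B, C and G had 25 of 68 higher (36.8%, near the 33.3% of all genes) and 20 lower (29.4%, against 36.4%). With upper-quartile factors they had 22 and 26. Amino acid transporters had 22 of 61 lower (36.1%, near the 36.4% of all genes) and 17 higher (27.9%). LHT7 was at 1.3, 5.3, 3.67 and 0.774 CPM in the control pools and 59.6, 123, 168 and 78.6 CPM in the ozone pools (log2 fold change 5.28 ± 0.51), AAT1 rose from between 1.23 and 3.53 CPM in control pools to between 27.5 and 42.7 CPM in ozone pools, and UMAMIT46 fell from between 34.1 and 57.3 CPM in control pools to between 3.38 and 8.3 CPM in ozone pools. Mitochondrial carriers split evenly with 17 in each direction of 40 (42.5% each, against 33.3% and 36.4% of all genes), or 12 higher and 18 lower with upper-quartile factors. DIC2, a dicarboxylate carrier, was at 2.36, 2.96, 5.48 and 1.59 CPM in the control pools and 163, 76.6, 40.7 and 219.8 CPM in the ozone pools (log2 fold change 5.34 ± 0.76), and UCP5, of the uncoupling protein family, at 14.2 to 24 CPM in control pools and 124 to 193 CPM in ozone pools. ERD6, a sugar transporter gene, was at 22.5, 25, 29.1 and 19.1 CPM in the control pools and 689, 513, 314 and 1092 CPM in the ozone pools (log2 fold change 4.77 ± 0.36), and the glucose transporter SWEET1 fell from between 24.3 and 43.3 CPM in control pools to between 5.58 and 10.7 CPM in ozone pools. The ammonium transporters AMT2 and AMT1;2 moved in opposite directions, the first from 8.73, 12.5, 11.5 and 7.42 CPM in the control pools to 255, 379, 267 and 392 CPM in the ozone pools (log2 fold change 5.01 ± 0.23), the second from 29.6, 67, 44.2 and 61.9 CPM in the control pools to 8.36, 2.1, 3.38 and 12.1 CPM in the ozone pools (log2 fold change -2.98 ± 0.47). NRT1.8, a nitrate transporter, rose from between 0.343 and 0.683 CPM in control pools to between 12.1 and 19.5 CPM in ozone pools.

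Vesicle traffic genes rose more often than they fell, and secreted proteases and arabinogalactan proteins fell more often than they rose. SNAREs and Rab GTPases steer vesicles, and of 87 tested 53 rose and 16 fell, 33 and 2 of them by at least 2-fold. SYP122, a syntaxin of the plasma membrane, was at 6.32, 12.2, 11.9 and 4.32 CPM in the control pools and 483, 684, 407 and 818 CPM in the ozone pools (log2 fold change 6.11 ± 0.44), and RABA1e rose from between 0.091 and 0.668 CPM in control pools to between 16.8 and 21.1 CPM in ozone pools. Subtilases and serine carboxypeptidases, mostly secreted proteases, had 43 of 61 lower and 6 higher. SBT3.3, a subtilase of immune priming, was at 1, 1.29, 0.93 and 0.455 CPM in the control pools and 32.7, 51.6, 64.4 and 45.3 CPM in the ozone pools (log2 fold change 5.72 ± 0.30), and scpl10 fell from between 58.1 and 116 CPM in control pools to between 5.48 and 15.5 CPM in ozone pools. Arabinogalactan and fasciclin-like proteins of the cell surface had 25 of 38 lower and 8 higher. AGP17 was at 53.3, 40.4, 40.2 and 34.6 CPM in the control pools and 6.02, 4.34, 4.11 and 8.72 CPM in the ozone pools (log2 fold change -2.86 ± 0.21), and AGP5 rose from between 2.14 and 20.8 CPM in control pools to between 113 and 161 CPM in ozone pools. Pectin methylesterases, their inhibitors and polygalacturonases, which modify pectin, had 38 of 94 lower (40.4%, near the 36.4% of all genes) and 18 higher (19.1%, against 33.3%). Hydroxyproline-rich glycoproteins and NDR1/HIN1-like proteins had 33 of 86 higher and 22 lower, or 30 in each direction with upper-quartile factors. In the list of pectin genes, AT2G45220 was at 3.16, 6.54, 8.37 and 3.19 CPM in the control pools and 130.1, 409.9, 447 and 119.8 CPM in the ozone pools (log2 fold change 5.70 ± 0.56), highest in ozone replicates 2 and 3. AT1G60590, a pectin lyase-like gene, was at 49, 66.6, 63.7 and 60.9 CPM in the control pools and 5.62, 3.42, 2.33 and 7.78 CPM in the ozone pools (log2 fold change -3.66 ± 0.27), and AT1G23205 fell from between 14.7 and 23.9 CPM in control pools to between 0.731 and 2.49 CPM in ozone pools. ACT11, an actin, fell from between 24.4 and 42.8 CPM in control pools to between 6.72 and 10.6 CPM in ozone pools.

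Small defence proteins and protective proteins differed within their lists. Defensins, thionins and PR-type proteins had 27 of 60 tested members higher and 15 lower, with 248 in the files. LCR67, a defensin-like gene, held 6 counts over the control pools and 10.4, 12.8, 16 and 7.41 CPM in the ozone pools. AT1G66100, a thionin, fell from 176, 121, 99.1 and 221 CPM in the control pools to 63.6, 26.4, 33.3 and 88 CPM in the ozone pools (log2 fold change -1.55 ± 0.37). NHL25, an NDR1/HIN1-like gene, held 3 counts over the control pools and 7.83, 12.9, 10.3 and 8.93 CPM in the ozone pools. Late embryogenesis abundant, dehydrin and cold-regulated proteins had 20 higher and 26 lower of 68 (29.4% and 38.2%, near the 33.3% and 36.4% of all genes). SAG21, a mitochondrial late embryogenesis abundant protein, was at 11.2, 43, 27.3 and 8.38 CPM in the control pools and 920.1, 1202, 894 and 1320 CPM in the ozone pools (log2 fold change 5.59 ± 0.55). DnaJ co-chaperones had 46 of 113 higher and 38 lower, and 38 and 47 with upper-quartile factors. AT2G20560 of that family rose from between 4.72 and 7.65 CPM in control pools to between 52.4 and 100.0 CPM in ozone pools.

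Genes for the handling of DNA and RNA differed by list. DNA replication licensing and repair genes had 27 of 42 lower and 7 higher (4 higher with upper-quartile factors), with 1 in each direction at 2-fold or more. RPA1A, a subunit of the single-strand binding protein, was at 5.22, 4.77, 4.75 and 5.33 CPM in the control pools and 15.2, 18.9, 18.5 and 14.7 CPM in the ozone pools (log2 fold change 1.74 ± 0.12), and ORC5 of the origin recognition complex fell from between 8.88 and 10.3 CPM in control pools to between 2.44 and 4.25 CPM in ozone pools. Kinesins, motors on microtubules, had 16 of 42 lower (38.1%, near the 36.4% of all genes) and 4 higher (9.52%, against 33.3%). Ribosomal proteins of eukaryotic type mostly did not pass, with 29 of 126 lower and 13 higher, 2 and 7 of them by at least 2-fold. With the replicate number as a block 46 were lower, and with upper-quartile factors 56. Ribosome biogenesis genes had 2 higher and 9 lower of 48, or 6 and 18 with the block and 0 and 22 with upper-quartile factors. Core histones and histone H1 had 7 higher and 14 lower of 45, with 23 lower under the block and 26 with upper-quartile factors. Their 15.6% higher and 31.1% lower are both under the shares of all genes. RNA helicases had 13 higher and 24 lower of 62, 5 and 4 of them by at least 2-fold. The 38.7% lower is near the 36.4% of all genes, and the 21% higher is under the 33.3%. With upper-quartile factors 9 were higher and 37 lower. Aminoacyl-tRNA synthetases had 9 higher and 26 lower of 53, 4 and 6 by at least 2-fold. Spliceosomal SR proteins and hnRNP-like proteins, which steer splicing, had 13 of 29 higher and 2 lower, or 6 and 4 with upper-quartile factors. SR45a, a splicing regulator of stress, was at 35.8, 42.1, 39.2 and 32 CPM in the control pools and 104, 131, 126 and 131 CPM in the ozone pools (log2 fold change 1.72 ± 0.10).

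Some further genes with the largest fold changes belonged to none of these groups. AT1G59950, of the NAD(P)-linked oxidoreductases, held 4 counts over the control pools and 31.1, 28.1, 21.8 and 46.3 CPM in the ozone pools. AT5G54585, an uncharacterised protein, was at 23.4, 13.3, 14.4 and 16.4 CPM in the control pools and 1.22, 0.0976, 0.686 and 2.35 CPM in the ozone pools (log2 fold change -3.97 ± 0.41). IAA14, a repressor of auxin responses, was at 18.5, 8.93, 10.5 and 15.8 CPM in the control pools and 0.929, 0.391, 0.96 and 1.72 CPM in the ozone pools (log2 fold change -3.75 ± 0.30). AT4G38860, another SAUR-like gene, was at 81.6, 72.4, 70.1 and 61.7 CPM in the control pools and 7.97, 3.56, 3.34 and 6.27 CPM in the ozone pools (log2 fold change -3.76 ± 0.21). These genes, too, were picked among genes whose groups did not overlap.

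Pools given ozone differed from each other more than control pools did. The median coefficient of variation of CPM over 4 pools was 14.2% without and 16.6% with ozone. With replicates 1 to 3 alone it was 10.3% and 15.1%. The gap was widest among genes above 1000 CPM, at 12.7% and 28% with 4 pools, where counting error at the median count is 0.487%. Between 10 and 100 CPM the medians were 11.1% and 13.6%, against a counting error of 4.37%, and under 1 CPM 35.6% and 36.5% against 29.8%. The farthest pool also differed between the groups. Over 8633 genes of at least 20 CPM, control replicate 4 was farthest from the median of its group in 49.9% of genes, and ozone replicate 1 in 44.9%.

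**Figure D4:**
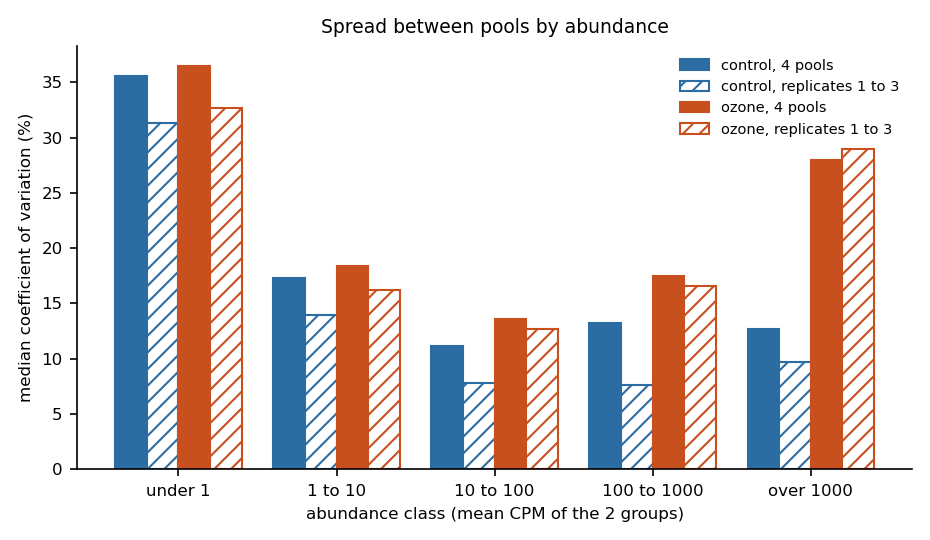
Median coefficient of variation of CPM between pools (y axis, %) in 5 abundance classes by mean CPM (x axis), for control (blue) and ozone (orange) pools, with 4 pools (filled) and with replicates 1 to 3 alone (hatched). Spread is highest under 1 CPM in both groups, and above 1000 CPM it is 28% under ozone against 12.7% in control pools.

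The size of the response itself varied between replicate numbers. The median log2 ratio of same-numbered ozone and control pools over the 2827 genes at least 2-fold lower was -1.15, -1.44, -1.53 and -1.18 in replicates 1 to 4, so the decrease was larger in replicates 2 and 3. Over the 3569 genes at least 2-fold higher it was 1.63, 1.8, 1.76 and 1.79. These genes were chosen from the same pools, and the ratios, taken with 0.5 CPM added, are a description. Of the 2-fold higher genes 3522 were higher in 4 of 4 pairs, and of the 2-fold lower genes 2796 were lower in 4 of 4.

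The genes that varied most between ozone pools fell into patterns by replicate number. PR1, a marker of salicylic acid signalling, was at 31.2, 252, 146 and 43.9 CPM in the control pools and 30.6, 171, 161 and 10.4 CPM in the ozone pools and did not pass the test (log2 fold change -0.34 ± 0.84, adjusted p = 0.73). ARD3, an acireductone dioxygenase, was at 5.57, 36.3, 19.3 and 5.83 CPM in the control pools and 9.59, 42.5, 48.9 and 3.97 CPM in the ozone pools, and AT4G10500, a 2-oxoglutarate-dependent oxygenase, at 5.12, 57.9, 13.7 and 8.01 CPM in the control pools and 8.12, 42.7, 63.9 and 7.68 CPM in the ozone pools. In all of these 3, replicates 2 and 3 lay above replicates 1 and 4 in ozone and control pools alike. Control replicate 3 of AT4G10500, at 13.7 CPM, was much nearer to control replicates 1 and 4 than to control replicate 2. Without control replicate 2 the change of AT4G10500 passed (log2 fold change 1.78, adjusted p = 0.0415). VSP2, a jasmonate-responsive storage protein, was at 27.4, 61.5, 26 and 178 CPM in the control pools and 30.3, 7.76, 10.3 and 82.1 CPM in the ozone pools, and AT1G14250, a nucleoside phosphatase, at 20.7, 27.7, 14.5 and 163 CPM in the control pools and 16.6, 7.57, 5.62 and 62.5 CPM in the ozone pools. Both were highest in replicate 4 of each group and did not pass. With the replicate number as a block AT1G14250 passed (log2 fold change -1.17, adjusted p = 0.0303). Without ozone replicate 4 both passed (-2.18 for VSP2 and -2.51 for AT1G14250), and without control replicate 4 neither did (-0.23 and 0.14). CYP706A6, a cytochrome P450, was at 123, 81.6, 82.2 and 126 CPM in the control pools and 39, 2.78, 6.08 and 23.1 CPM in the ozone pools (log2 fold change -2.54 ± 0.70). AT1G13650, an uncharacterised protein, was at 192, 142, 167 and 155 CPM in the control pools and 37.2, 2.98, 3.61 and 12.6 CPM in the ozone pools (log2 fold change -3.54 ± 0.72), and AT2G27420, a cysteine protease, at 22.2, 52.6, 32.3 and 44 CPM in the control pools and 5.43, 0.146, 0.32 and 3.13 CPM in the ozone pools (log2 fold change -4.08 ± 0.74). These 3 fell in every ozone pool and were lowest in ozone replicates 2 and 3. WRKY67 held 1 count over the control pools and 2.2, 16.1, 21.6 and 2.3 CPM in the ozone pools, again with replicates 2 and 3 apart.

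**Figure D5:**
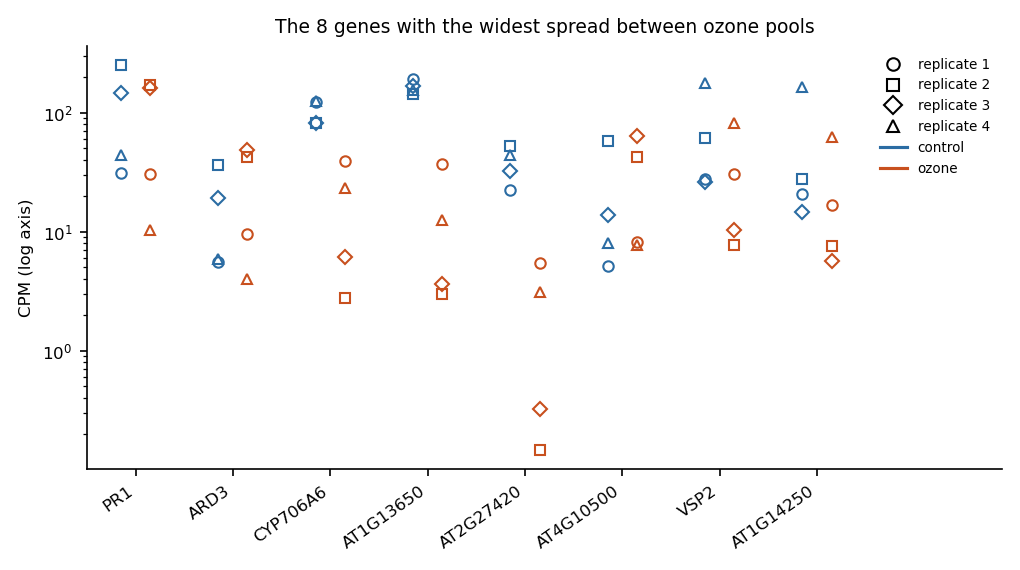
Level in CPM (log y axis) of the 8 genes of at least 20 CPM with the widest spread between ozone pools, each pool a point, control in blue and ozone in orange, the shape giving the replicate number. PR1, ARD3 and AT4G10500 are high in replicates 2 and 3 of both groups, VSP2 and AT1G14250 are high in replicate 4 of both groups, and the other 3 genes are lowest in ozone replicates 2 and 3.

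Few abundant genes could be bounded closely around no change. Of 4039 genes of at least 50 CPM, 260 had a 95% interval within 1.25-fold in either direction and 934 within 1.5-fold. Those with the narrowest intervals included CID7, at 78.1, 80.7, 78.6 and 77.3 CPM in the control pools and 79.3, 73.4, 76.8 and 80.7 CPM in the ozone pools (log2 fold change -0.02, 95% interval -0.15 to 0.11). SDH5, a subunit of succinate dehydrogenase, was at 116, 119, 115 and 107 CPM in the control pools and 116, 118, 120.2 and 109 CPM in the ozone pools (0.02, interval -0.11 to 0.16). ATPQ, a subunit of mitochondrial ATP synthase, was at 166 to 189 CPM in control pools and 169 to 185 CPM in ozone pools, and AT3G03100, a subunit of the respiratory complex I, at 68 to 72.8 CPM in control pools and 67.3 to 74 CPM in ozone pools. MAP2B, a methionine aminopeptidase, AT3G11450, AT5G46020 and AT5G20080 completed the 8. These bounds hold for TMM scaling: with upper-quartile factors all 8 lay at -0.18 to -0.22 and passed the test as lower.

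Gene structure also differed between the sets. Genes with 1 exon were at least 2-fold higher in 26.3% of cases and 2-fold lower in 17.9%, and genes with more than 10 exons in 10.8% and 9.38%. The classes between ran from 21% to 15.2% higher and from 16.3% to 12.7% lower, in order of exon number. Median levels rose along the same order from 6.54 CPM with 1 exon to 28.7 CPM with more than 10, and their part in these shares was not tested. Among genes at least 32-fold higher 31.6% had 1 exon, against 15.5% of all tested protein-coding genes. The 5 chromosomes had similar shares, with 971 to 1807 genes higher and 1139 to 1929 lower of 3016 to 5266 tested. Chromosome 1 had 1807 higher and 1929 lower of 5266, and chromosome 2 had 971 and 1140 of 3016. Median log2 fold changes of the chromosomes lay between -0.11 and -0.06.

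The mutants were not compared for their own sake, but the same fit gives the test of the difference from Col-0. The response of wrky25 wrky33 differed in 191 genes (0.957%) by edgeR. Of these, 125 were among the 3569 genes at least 2-fold higher in Col-0 and 12 among the 2827 at least 2-fold lower. Both sets were chosen on the Col-0 response, and the difference subtracts that same response, so their genes are favoured in it. Whether the difference is concentrated in genes that ozone raised was not tested. The response of wrky75 differed in 0 genes by edgeR and 2 by DESeq2, with 349 genes at an unadjusted p under 0.05 in edgeR. Of the 142 genes named above by the rule on list members and extremes, MYB16 was the 1 whose response differed in a mutant by edgeR, with a log2 response 1.18 higher in wrky25 wrky33 (adjusted p = 0.0297).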

How the data were processed

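Whole rosettes were sequenced as pools of 5 plants, with libraries made with a TruSeq RNA kit that does not mark the strand, per the labels' protocols. The authors deposited raw read counts per gene, and the submitters' processing notes name TAIR10 as the genome build and TopHat2, HTSeq, SAMtools and FastQC as tools. The sources used here give no versions or settings, including those for strand and for multi-mapping reads. Reads of overlapping genes on opposite strands and of close gene copies therefore cannot be told apart. The totals of the libraries lay close together, and no step that would bring this about is named. The files held 33602 genes and 0 entries that named no gene. Symbols, exon numbers and starts came from RefSeq's TAIR10.1, where 32835 loci (97.72%) matched, all on the same chromosome. Positions are 1-based.

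Genes were filtered with filterByExpr on 6 groups, which left 19954, and all 20 libraries were fitted with group means in edgeR 4.0.16 (R 4.3.3), with TMM factors, quasi-likelihood F-tests and Benjamini-Hochberg adjustment over all genes tested. The biological coefficient of variation was 17.2%. The test was tried on simulated data, and DESeq2 1.42.0 was an alternative, beside other scalings, no filter, Col-0 alone, replicates 1 to 3 alone, each pool left out and the replicate number as a block. Shares of counts were compared with exact permutation tests. Counting error is small beside the spread between pools from 10 CPM upward, and a large part of it below that. The F-test p-values set the difference between group means against a spread estimated from all 20 libraries.

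Same-numbered control and ozone pools deviated together from their group means (correlations 0.281, 0.24, 0.11 and 0.382 in replicates 1 to 4), and pools of different numbers gave -0.259 to 0.171. Control replicate 3 correlated no better with its own number than with ozone replicate 2 (0.113). The numbers come from the titles, and the labels do not say what a number stands for.

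Genes named were, in each list, up to 2 called members with the largest increase and 2 with the largest decrease at a mean of at least 5 CPM, the 10 largest gains and losses in CPM, the 10 largest increases and decreases at 5 CPM or more without overlap, the 8 widest spreads between ozone pools at 20 CPM or more, and the 8 narrowest intervals around no change at 50 CPM or more. Some of these 369 are left out of the text. The comparison, lists and rule were chosen with earlier results of these data known.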

Additional observations from a re-analysis of the deposited data

Results flagged for a closer look

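Over the 142 genes named by rule in the text and 6 measures of how counts were spread over genes, 296 groups of 4 pools were examined for a pool far from the other 3 by Dixon's test at its 95% critical value, and 15 were singled out, about the share of 1 in 20 that chance gives. Of these, 12 were control pools. Control replicate 1 stood high for UGT73B4 at 0.753 CPM, for AT3G23550 at 2.66 CPM and for UBQ10 at 1161 CPM, and low for CYP707A2 at 5.02 CPM. Control replicate 2 stood high for PSK2 at 2.05 CPM, CYP710A1 at 1.1 CPM, AT4G10500 at 57.9 CPM and PROPEP3 at 0.0477 CPM, the last being 1 count. Control replicate 3 was low for NHL25 at 0 CPM and high for WRKY67 at 0.0489 CPM, which is also 1 count. Control replicate 4 was low for LCR67 at 0 CPM and high for AT1G14250 at 163 CPM. Ozone replicate 4 stood high for CNGC4 at 25.2 CPM, PAP1 at 4.75 CPM and EXPA8 at 6.21 CPM.

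The ozone response of MYB16 differed between genotypes by edgeR's test of the difference, with a log2 response 1.18 higher in wrky25 wrky33 than in Col-0 (adjusted p = 0.0297).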

How the results depend on the processing

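Counts of calls in Col-0 over all genes stayed within 1.5 times the reported ones under each scaling, filter, tool and set of libraries, and no gene was called in opposite directions. Leaving out 1 Col-0 pool gave 6231 to 6802 genes higher and 6686 to 7313 lower. Against a change of 1.5-fold in place of none, 4102 were higher and 3567 lower. The replicate block gave 7014 higher and 7945 lower. Beside the lists and AT1G14250 above, it changed no other call among the genes named by rule in the text. Permuting within pairs of the same number (a replicate block added after seeing the data) took the differences of -3.46 and -8.58 percentage points for the 10 and 100 most abundant genes, of 300.2 genes for those that hold 50% of the counts and of 226 genes of at least 1 CPM to an exact p of 0.125, the smallest 4 pairs allow. Beside the list counts given above, replicates 1 to 3 alone moved calcium ATPases and exchangers from 4 to 2 lower, NAC factors from 7 to 4 lower, CONSTANS-like factors from 3 to 5 higher, ribosome biogenesis from 2 to 5 higher and cuticle genes from 2 to 1 higher. DESeq2 moved calcium ATPases from 4 to 2 lower, ribosome biogenesis from 2 to 6 higher and SR proteins from 2 to 0 lower, and scaling to library totals moved plastid fatty acid synthesis from 2 to 1 higher. Genes whose response differed in wrky25 wrky33 numbered 618 with the block and 372 by DESeq2, and in wrky75 2 by DESeq2. Upper-quartile factors turned the majority direction of 9 of 85 lists, replicates 1 to 3 alone that of 3 and the replicate block that of 1. Upper-quartile factors also moved MAP2B to -0.19 and SDH5 to -0.18 (log2), both then past the threshold. By CPM per kilobase the shares called were 46.6% under 1, 68.2% and 78.2% in the next classes and 72.4% between 100 and 1000. Replicates 1 to 3 alone gave median coefficients of variation of 10.3% and 15.1%. Leaving out 1 pool, the plastid share under ozone minus control ran from -0.00755 to 0.0019 percentage points, the latter without control replicate 4. The genes of at least 1 CPM then differed by 183 to 269, and by 208 to 236 with an exact p of 0.0571 where an ozone pool was left out. For the 369 genes of the naming rule, 5460 of 5534 values counted as unchanged. In these, called genes kept their call and direction, and genes not called moved by less than their error, whatever the sign. Of the other values, 56 lost a call in 16 genes, 10 gained one in the same direction, 2 gained one with the sign turned (MAP2B and SDH5 above), and 6 values of genes not called moved further than their error without passing. The causes were not tested. DESeq2 gave no adjusted p for AT1G13650. Depth limits the genes under 1 CPM, where counting error at the median count is 29.8%.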
